A study of Mus musculus with 24 samples.

Results

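Notch signaling genes were described in SHH-driven medulloblastomas, tumors of the cerebellum, of 2 mouse genotypes. They are 10 genes chosen by name: the ligands *Dll1*, *Dll3*, *Jag1* and *Jag2*, the receptors *Notch1* and *Notch2*, and the transcription factors *Hes1*, *Hes5*, *Hes6* and *Hey1*. Each gene was represented by the probe set annotated to it alone that had the highest mean, and all 10 had one. They are 10 of 22180 genes so covered, on arrays with values for 41345 probe sets. The oncogenic *SmoM2* allele is a constitutively active form of the SHH signal transducer Smoothened. In *G-Smo* (*hGFAP-Cre/SmoM2*) mice, the human GFAP promoter drives Cre. There, *SmoM2* is expressed from neural stem cells of the early brain and then in the cells that derive from them. In *M-Smo* (*Math1-Cre/SmoM2*) mice, Cre follows *Math1* (*Atoh1*), and *SmoM2* is expressed from committed neural progenitors and then in the cells that derive from them. Both genotypes carry *SmoM2*, were bred on a C57BL/6 background, and gave whole tumors at postnatal day 15 (P15), with no sex recorded. The 12 untreated tumors, 6 of each genotype, were each measured on 1 Affymetrix Mouse Gene 2.1 ST array. The 12 arrays of irradiated tumors hold values for 1019 probe sets, which include 0 of the 10 genes, and were not used here.

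Notch receptors are membrane proteins that bind DSL ligands, of the Delta-like and Jagged families, on neighboring cells. Binding leads to cleavage of the receptor by ADAM proteases and γ-secretase, and the released intracellular domain joins the DNA-binding protein RBPJ and a Mastermind coactivator to switch on *Hes* and *Hey* genes, whose products repress proneural genes such as *Atoh1*. In the developing cerebellum the pathway is known for keeping stem cells and radial glia undifferentiated, and *Notch2* is known as a receptor of dividing granule neuron progenitors, the cells from which SHH medulloblastoma forms. Values below are log2 intensities, the scale on which a difference of 1 is a doubling of signal. Each probe set has its own response to its target, so levels were compared between tumors and never between genes.

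Array medians were 6.39 to 6.42 in *G-Smo* and 6.38 to 6.41 in *M-Smo* tumors. Every gene had 6 arrays per genotype, and precision varied with the spread between tumors. Standard errors of the 10 genes ran from 0.052 (*Notch2*) to 0.147 (*Hes5*). *Prm1*, part of the *hGFAP-Cre* transgene, was 10.09 to 10.54 in *G-Smo* and 5.19 to 5.76 in *M-Smo* tumors, so that every array matched its label. All 5 markers of granule lineage progenitors had means between 9.82 and 12.40, and their averaged level was 11.36 to 11.47 in *G-Smo* and 11.26 to 11.39 in *M-Smo* tumors. With 6 tumors of each genotype, the p-values measure the spread between these tumors.

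The promoters of the genes on which the comparison turned are shown because an RBPJ site near the start is the known route by which the cleaved receptor acts on *Hes5*. RefSeq promoters (GRCm38.p6) were found for 8 of the 10 genes, with 10 promoters in all. They were searched on both strands for the RBPJ motif GTGGGAA, which contains the shorter core TGGGAA. *Hes1* and *Hey1* had no promoter in the set used and were not searched. The 250 bases before the start are given 5′ to 3′ on the strand of the gene, with each motif match, or its reverse complement, in capitals. *Hes5* lies on chromosome 4 (chr4:154960673-154960922, plus strand), *Jag1* on chromosome 2 (chr2:137116521-137116770, minus strand) and *Jag2* on chromosome 12 (chr12:112929496-112929745, minus strand).
Hes5: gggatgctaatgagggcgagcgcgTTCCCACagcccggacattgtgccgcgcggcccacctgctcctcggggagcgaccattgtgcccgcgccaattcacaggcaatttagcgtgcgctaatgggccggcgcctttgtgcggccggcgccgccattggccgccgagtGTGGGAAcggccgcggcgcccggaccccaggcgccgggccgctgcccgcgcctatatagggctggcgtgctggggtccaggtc
Jag1: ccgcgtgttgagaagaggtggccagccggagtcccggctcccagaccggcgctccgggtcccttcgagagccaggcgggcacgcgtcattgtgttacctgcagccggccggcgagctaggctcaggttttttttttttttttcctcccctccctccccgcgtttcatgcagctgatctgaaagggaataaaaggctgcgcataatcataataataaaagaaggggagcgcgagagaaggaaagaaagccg
Jag2: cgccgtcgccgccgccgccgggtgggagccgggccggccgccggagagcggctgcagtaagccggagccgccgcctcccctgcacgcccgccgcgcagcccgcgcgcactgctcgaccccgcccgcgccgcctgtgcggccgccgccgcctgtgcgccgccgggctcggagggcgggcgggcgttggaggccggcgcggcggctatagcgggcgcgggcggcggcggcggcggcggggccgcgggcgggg
The *Hes5* promoter held 2 matches, 1 on the gene's strand 83 bases before the start and 1 on the opposite strand 226 bases before it. GTGGGAA was present in 6.38% of 32851 promoters of this length (250 bases before to 50 after the start), and 2 or more matches were present in 0.256%. Neither GTGGGAA nor TGGGAA was found in this window of *Jag1*, *Jag2*, *Notch1*, *Notch2*, *Dll1*, *Dll3* or *Hes6*, and TGGGAA was present in 25.6% of all promoters. A match is a description of letters and says nothing of binding in these tumors.

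Of the 10 genes, 1 passed the test between untreated genotypes, the ligand *Jag1*, which was higher in *G-Smo* tumors. None was lower by this test, 9 did not pass, and 2, *Jag1* and *Jag2*, had an unadjusted p under 0.05, as did 18.9% of all probe sets. The difference was positive in *G-Smo* for 6 genes and negative for 4, with a median of 0.067 against 0.00347 for all probe sets. By the same rule (limma, Benjamini-Hochberg adjusted p under 0.05 over 41345 probe sets) 1057 probe sets, 2.56%, passed, of which 525 (1.27%) were higher and 532 (1.29%) lower in *G-Smo* tumors. The split moved with the scaling, to 430 higher and 658 lower after quantile normalization and 425 and 586 after median centring. In bulk tumors, fewer cells of a type and less RNA per cell cannot be told apart.

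**Figure D1:**
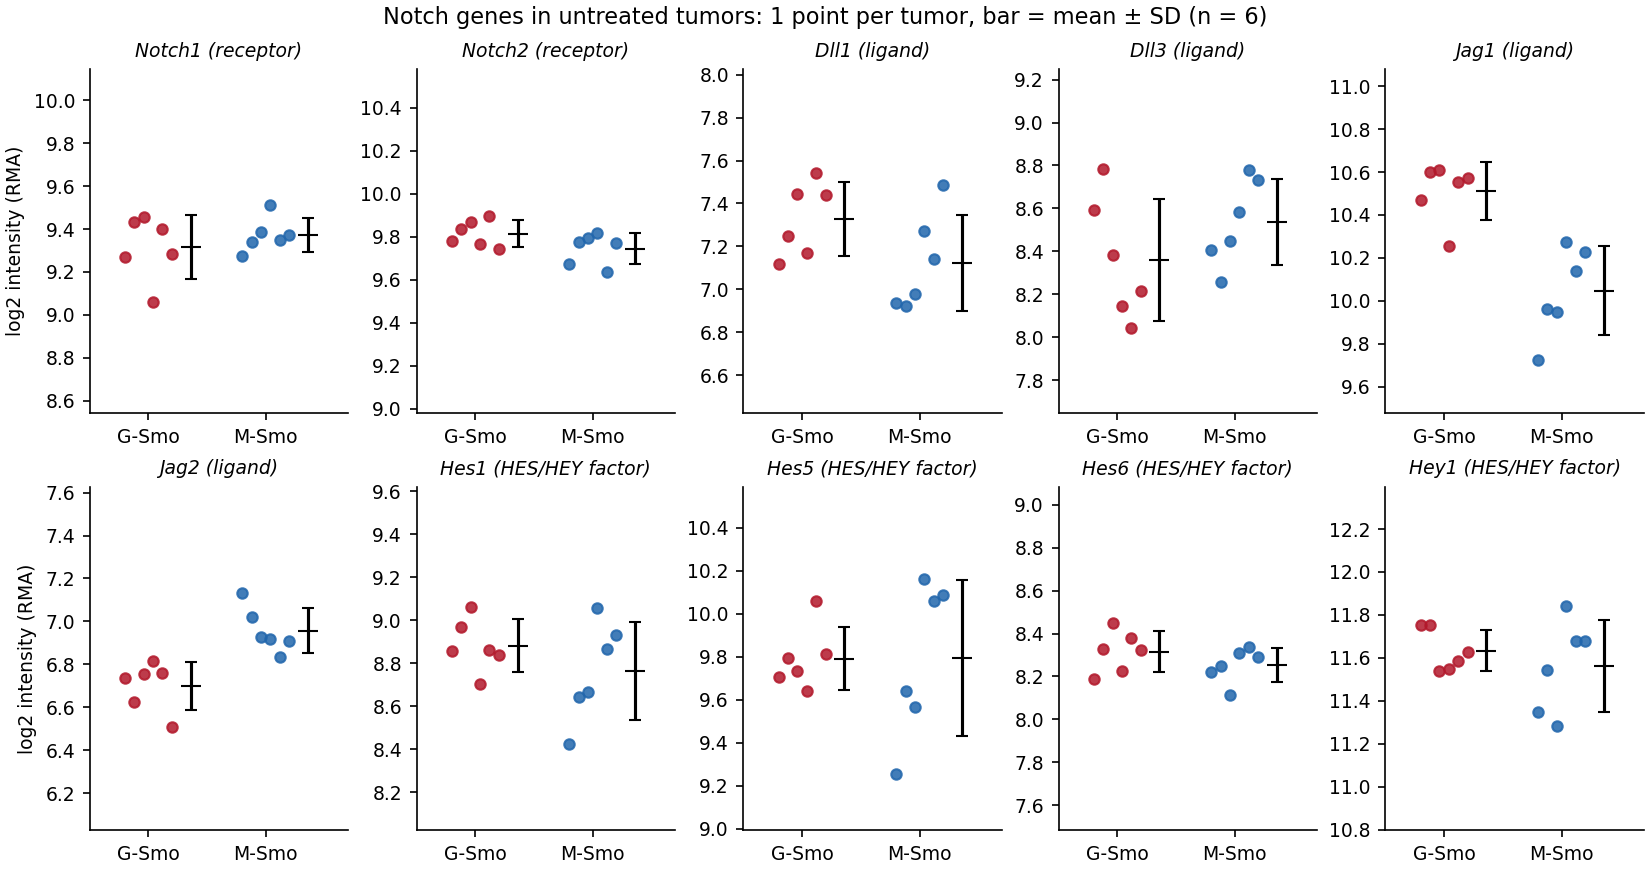
Log2 intensity of the 10 Notch genes in each untreated tumor, 1 point per tumor, with 6 *G-Smo* and 6 *M-Smo* tumors per panel; bars are the mean and SD, each panel has its own offset, and all panels span the same log2 range. *Jag1* points are higher in *G-Smo* (10.25 to 10.61) than in *M-Smo* (9.73 to 10.28), *Jag2* points do not overlap, and *Hes5* is the most widely spread in *M-Smo* (9.25 to 10.16).

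Among the ligands, *Jag1* (chromosome 2), which activates Notch receptors on adjacent cells and is made by granule neuron progenitors and vascular cells, was 10.25 at the lowest, 10.56 at the median and 10.61 at the highest *G-Smo* tumor. In *M-Smo* tumors its level was 9.73 at the lowest, 10.05 at the median and 10.28 at the highest. The genotypes overlapped by 1 tumor on each side, *G-Smo* replicate 4 at 10.25 and *M-Smo* replicate 4 at 10.28. The means were 10.51 ± 0.14 and 10.05 ± 0.21 (SD, n = 6 each), a log2 difference of 0.46 (SE 0.098, 95% interval 0.25 to 0.68) and a 1.38-fold higher signal in *G-Smo* tumors (limma, adjusted p = 0.0303; exact two-sided permutation test, p = 0.00433). The difference stayed between 0.40 and 0.51 when each tumor was left out in turn, but the adjusted p rose above 0.05, to at most 0.0727, without *G-Smo* replicate 2, 3, 5 or 6 or *M-Smo* replicate 2 or 3. With a score of *Xist* and Y-linked transcripts as a covariate the difference was 0.52 (adjusted p = 0.0581), and the score was female-type in 5 of 6 *G-Smo* and 2 of 6 *M-Smo* tumors.

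*Jag2* (chromosome 12), the second Jagged ligand, ran the opposite way. Its level was 6.51, 6.75 and 6.82 at the lowest, median and highest *G-Smo* tumor, and 6.84, 6.92 and 7.13 in *M-Smo* tumors. Every *M-Smo* tumor was above every *G-Smo* tumor, although the highest *G-Smo* and the lowest *M-Smo* tumor were close together. The *Jag2* mean over the 12 tumors was 6.83, where the median of all probe set means was 6.39. The means were 6.70 ± 0.11 and 6.96 ± 0.10 (SD, n = 6 each), a log2 difference of −0.26 (SE 0.068, 95% interval −0.41 to −0.11), or 1.20-fold higher signal in *M-Smo* tumors. In limma its adjusted p was 0.0684, which did not pass, and the exact two-sided permutation test gave p = 0.00216, the smallest it can give, unadjusted over the 10 genes. *Jag2* was the 1 gene of the 10 whose genotypes did not overlap, against 1429 probe sets, 3.46%, of all. It passed after quantile normalization, after a filter on dim probe sets, over probe sets with 1 symbol alone and with the *Xist* and Y-linked score, with adjusted p from 0.0343 to 0.0499.

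The Delta-like ligands did not pass the test. *Dll1* (chromosome 17), an activating ligand of differentiating neural progenitors, was 7.12, 7.35 and 7.54 at the lowest, median and highest *G-Smo* tumor and 6.92, 7.06 and 7.48 in *M-Smo* tumors. Its log2 difference was 0.21 (SE 0.109, 95% interval −0.031 to 0.44, adjusted p = 0.332 in limma), and the genotypes overlapped over most of their range. A second *Dll1* probe set, with a mean of 6.55, had a difference of −0.027 (adjusted p = 0.864), so that the sign depended on the probe set. *Dll3* (chromosome 7), a divergent family member known to act inside the cell that makes it rather than as an activating ligand, was 8.04, 8.30 and 8.78 in *G-Smo* and 8.26, 8.52 and 8.78 in *M-Smo* tumors. Its difference was −0.17 (SE 0.132, 95% interval −0.46 to 0.11, adjusted p = 0.515), and its highest values were alike in both genotypes. *G-Smo* tumors were widely spread for *Dll3*, over 0.742 log2 units, with replicates 1 and 2 at 8.59 and 8.78 and the other 4 at 8.38 or less.

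Neither receptor passed the test. *Notch1* (chromosome 2), the receptor known for maintaining neural stem cells and glia, was 9.06, 9.34 and 9.46 at the lowest, median and highest *G-Smo* tumor and 9.27, 9.36 and 9.51 in *M-Smo* tumors. The low *G-Smo* value was that of replicate 4, and the remaining *G-Smo* tumors lay between 9.27 and 9.46, overlapping the *M-Smo* tumors. The log2 difference was −0.055 (SE 0.072, 95% interval −0.21 to 0.10, adjusted p = 0.732 in limma). *Notch2* (chromosome 3) was 9.74, 9.81 and 9.90 in *G-Smo* and 9.64, 9.77 and 9.82 in *M-Smo* tumors. Its difference was 0.071 (SE 0.052, 95% interval −0.042 to 0.18, adjusted p = 0.499), with overlapping genotypes. *Notch2* was also among the steadiest probe sets between tumors of 1 genotype, since its pooled SD of 0.0669 was at percentile 5.23 of all probe sets.

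The HES and HEY factors, of which *Hes1*, *Hes5* and *Hey1* are usually read as Notch targets, gave no difference past the threshold. *Hes1* (chromosome 16), a repressor of proneural genes in progenitors, was 8.70, 8.86 and 9.06 at the lowest, median and highest *G-Smo* tumor and 8.43, 8.77 and 9.06 in *M-Smo* tumors. Its log2 difference was 0.12 (SE 0.102, 95% interval −0.10 to 0.34, adjusted p = 0.577 in limma). The highest values of *Hes1* were alike in both genotypes, and its 3 lowest values were those of *M-Smo* replicates 1, 2 and 3, at 8.43, 8.64 and 8.67.

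*Hes5* (chromosome 4) is a repressor of proneural genes in neural stem cells and radial glia, with both RBPJ motif matches shown above. It had the same mean in both genotypes, 9.79 ± 0.15 in *G-Smo* and 9.79 ± 0.36 in *M-Smo* tumors (SD, n = 6 each). Its log2 difference was −0.0042 (SE 0.147, adjusted p = 0.994), and the 95% interval of −0.32 to 0.31 left room for a change of that size either way. *G-Smo* tumors were at 9.64, 9.76 and 10.06 (lowest, median and highest). *M-Smo* tumors spread over 0.906 log2 units, with replicates 1, 2 and 3 at 9.25, 9.64 and 9.57 and replicates 4, 5 and 6 at 10.16, 10.06 and 10.09. The *M-Smo* tumors thus lay on both sides of the *G-Smo* median, and the pooled SD of *Hes5* was at percentile 80.4 of all probe sets. Its second probe set, with a mean of 5.96, had a difference of −0.16 (adjusted p = 0.515) and spread most in *G-Smo* tumors, over 0.827 log2 units.

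*Hes6* (chromosome 1), a family member known to oppose *Hes1* and favor neuronal differentiation, was 8.19, 8.33 and 8.45 at the lowest, median and highest *G-Smo* tumor and 8.11, 8.27 and 8.34 in *M-Smo* tumors. Its log2 difference was 0.062 (SE 0.060, 95% interval −0.067 to 0.19, adjusted p = 0.619 in limma). *Hey1* (chromosome 3), a HES-related repressor, was 11.54, 11.61 and 11.75 in *G-Smo* and 11.28, 11.61 and 11.84 in *M-Smo* tumors. Its medians were alike, with *M-Smo* replicates 1 and 3 lowest at 11.35 and 11.28 and *M-Smo* replicate 4 highest. Its difference was 0.072 (SE 0.094, 95% interval −0.13 to 0.28, adjusted p = 0.728). The exact two-sided permutation test gave p from 0.104 (*Notch2*) to 0.989 (*Hes5*) for the 8 genes other than *Jag1* and *Jag2*, unadjusted.

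**Figure D2:**
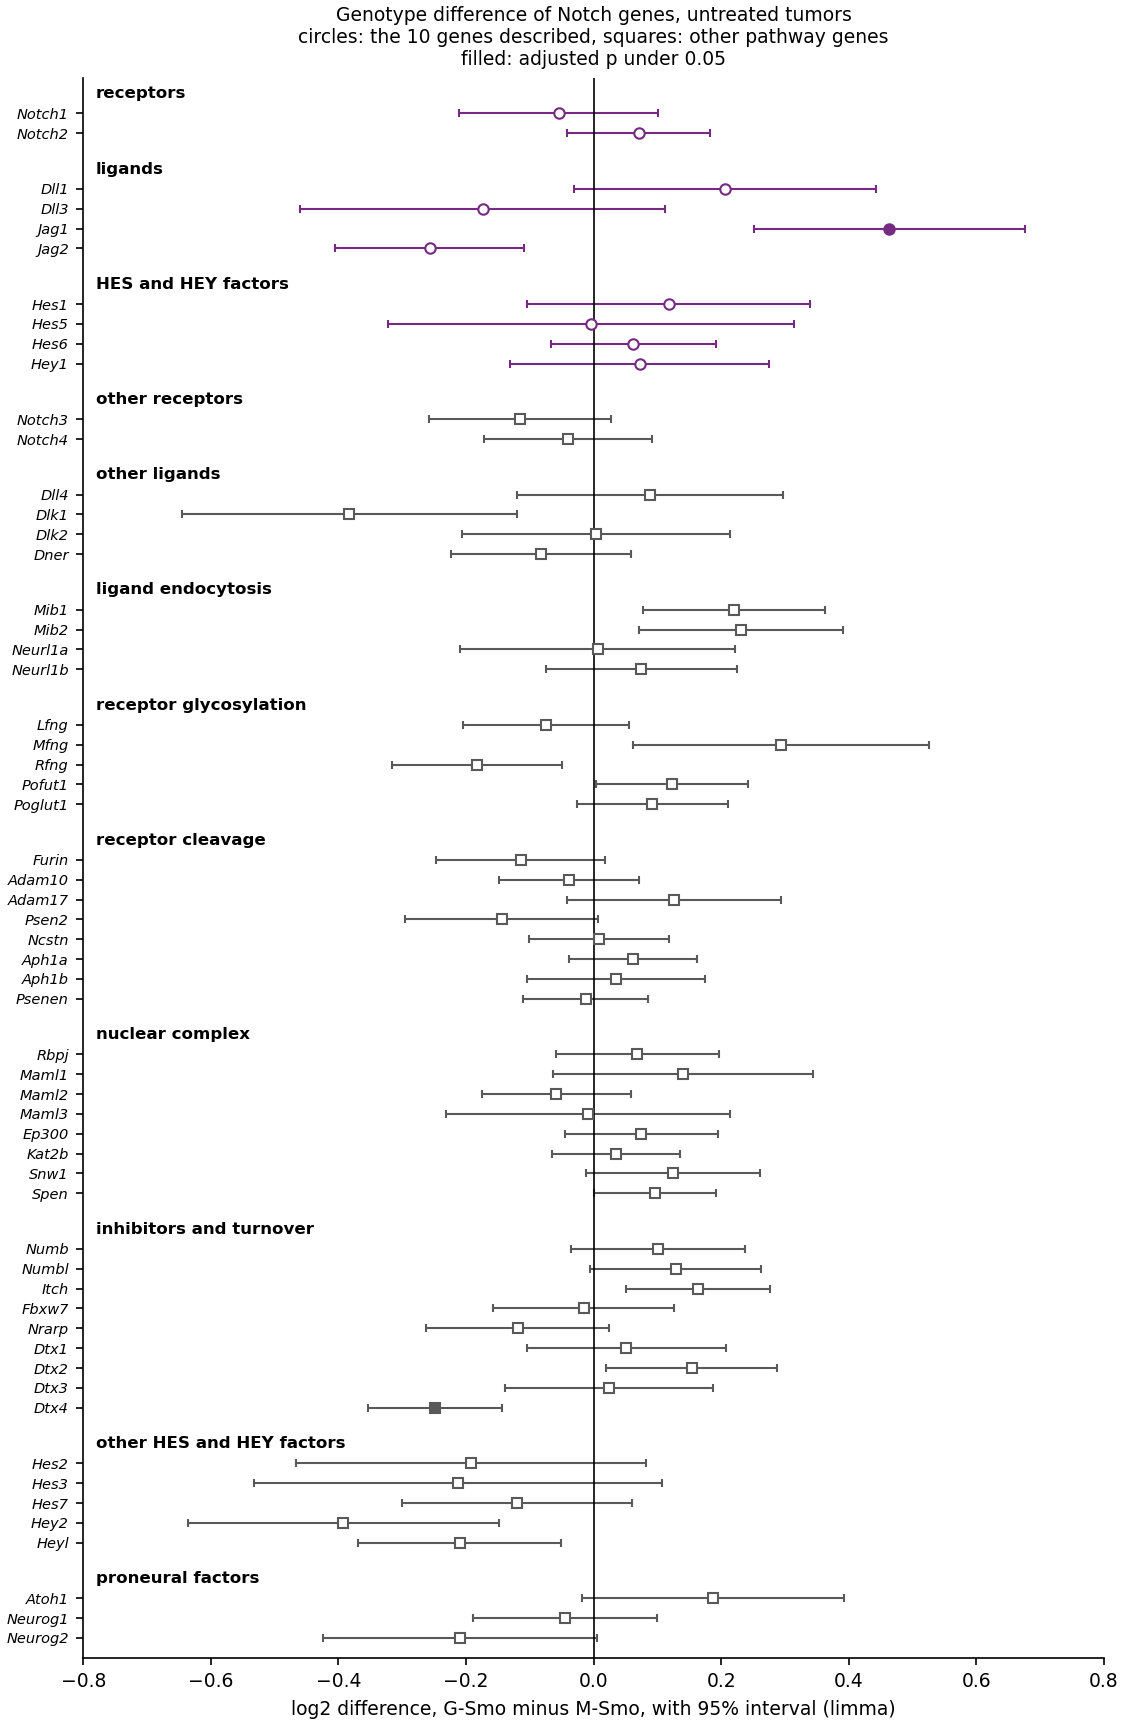
Log2 difference, *G-Smo* minus *M-Smo*, of the 10 Notch genes (circles) and 48 other pathway genes (squares) by role, with 95% intervals from limma over 12 untreated tumors; filled symbols have an adjusted p under 0.05. *Jag1* at 0.46 and *Dtx4* at −0.25 are the filled symbols, and all 5 other HES and HEY factors lie below 0.

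The 4 HES and HEY factors were set against the receptors in both ways the arrays allow, by genotype difference and tumor by tumor. By genotype, the 2 receptors differed by −0.055 and 0.071, and the 4 HES and HEY factors by −0.0042 to 0.12 with a median of 0.067, so that neither role had a member past the threshold. The median of the 4 ligands was 0.016, made up of *Jag1* at 0.46, *Dll1* at 0.21, *Dll3* at −0.17 and *Jag2* at −0.26.

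Tumor by tumor, 8 pairs of 1 factor and 1 receptor were correlated over the 12 tumors, and none passed after adjustment over the 8 pairs. The highest r was that of *Hes1* with *Notch1*, 0.58 (permutation p = 0.0520, adjusted p = 0.301), with rho 0.73 (permutation p = 0.00978, adjusted p = 0.0782). Without the 2 tumors farthest from the median *Notch1* level, r was 0.60. Within *G-Smo* tumors r was 0.91 (exact permutation p = 0.00278, adjusted p = 0.0222), and within *M-Smo* tumors it was 0.83 (exact permutation p = 0.0431, adjusted p = 0.344), where 6 tumors give 720 orders. The value within *G-Smo* tumors passed after adjustment over its 8 pairs, that within *M-Smo* tumors did not, and the difference between the genotypes was not tested. With the genotype means removed, r over 12 tumors was 0.72 (adjusted p = 0.0696).

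The other pairs were weaker over the 12 tumors. *Notch1* gave r = 0.46 with *Hes5*, 0.44 with *Hes6* and 0.27 with *Hey1*, and the matching rho values were 0.55, 0.57 and 0.22 (adjusted permutation p from 0.188 to 0.572 for rho). *Notch2* gave r = 0.50 with *Hes1*, 0.25 with *Hes5*, 0.33 with *Hes6* and 0.14 with *Hey1*, with rho 0.50, 0.24, 0.34 and 0.084 (adjusted permutation p from 0.196 to 0.80 for rho). For r itself, the adjusted permutation p of these 7 pairs was from 0.301 to 0.656. Leaving out the 2 tumors farthest from the median receptor level moved *Hes1* with *Notch2* to 0.81 and *Hey1* with *Notch1* to 0.034. Within genotypes none of these 7 pairs passed (exact permutation test, adjusted p of 0.311 or more), and *Hes6* with *Notch2* was 0.71 in *G-Smo* and −0.33 in *M-Smo* tumors, a difference that was not tested.

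**Figure D3:**
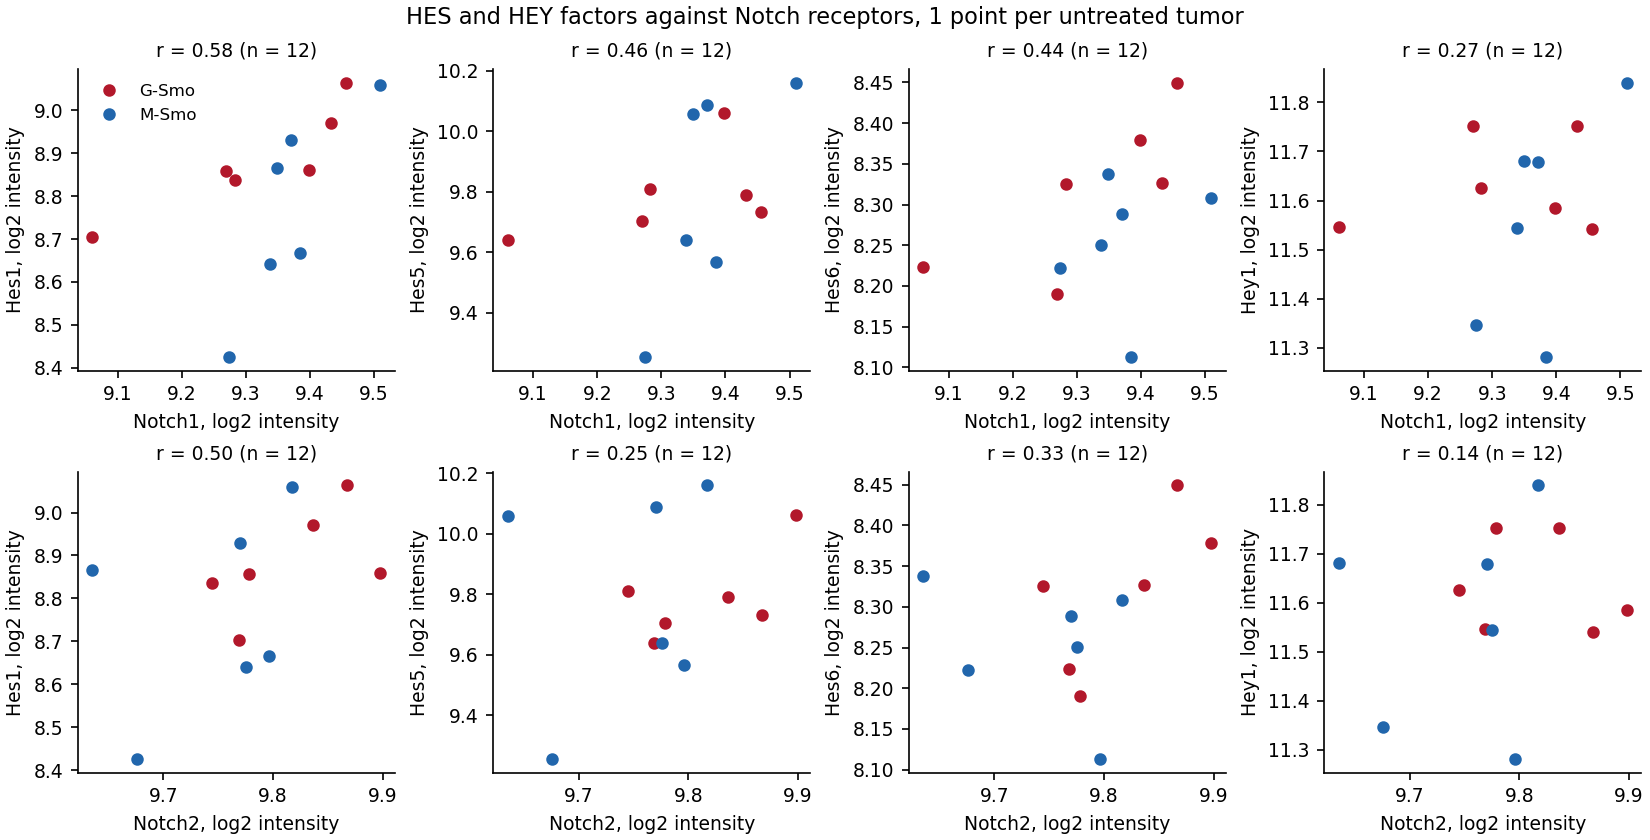
Log2 intensity of *Hes1*, *Hes5*, *Hes6* and *Hey1* (vertical) against *Notch1* (upper row) and *Notch2* (lower row), 1 point per untreated tumor, colored by genotype, with Pearson r over 12 tumors. *Hes1* rises with *Notch1* in both genotypes (r = 0.58 over all, 0.91 in *G-Smo*, 0.83 in *M-Smo*).

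How the genes varied within a genotype was described by taking each tumor's deviation from its genotype mean, with no test. *Jag1* and *Hes1* varied together with r = 0.95 over the 12 tumors, *Jag1* and *Hes5* with r = 0.87, and *Hes1* and *Hes5* with r = 0.82. *Jag2* ran against them, at −0.68 with *Jag1* and −0.56 with *Hes5*. *Notch1* was at 0.76 and *Notch2* at 0.39 with *Jag1*.

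Many other genes shared this variation. The leading component of within-genotype variance over all probe sets held 18.3% of that variance, and 10.0% of probe sets had an absolute r over 0.7 with it. The r with this component was 0.94 for *Jag1*, 0.94 for *Hes5*, 0.90 for *Hes1*, 0.79 for *Hey1*, 0.75 for *Dll1*, 0.67 for *Hes6*, 0.56 for *Notch1*, 0.45 for *Dll3*, 0.17 for *Notch2* and −0.70 for *Jag2*. *M-Smo* replicates 1, 2 and 3 had scores of −0.59, −0.19 and −0.31, replicates 4, 5 and 6 had 0.40, 0.38 and 0.30, and *G-Smo* tumors lay between −0.26 and 0.12. The tumors low in *Hes5* among *M-Smo* were thus those with negative scores, and the lowest *G-Smo* score was that of replicate 4, the tumor lowest in *Jag1*, *Hes1*, *Hes5* and *Notch1* in its genotype. The part of this component in the correlations between Notch genes was not tested.

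**Figure D4:**
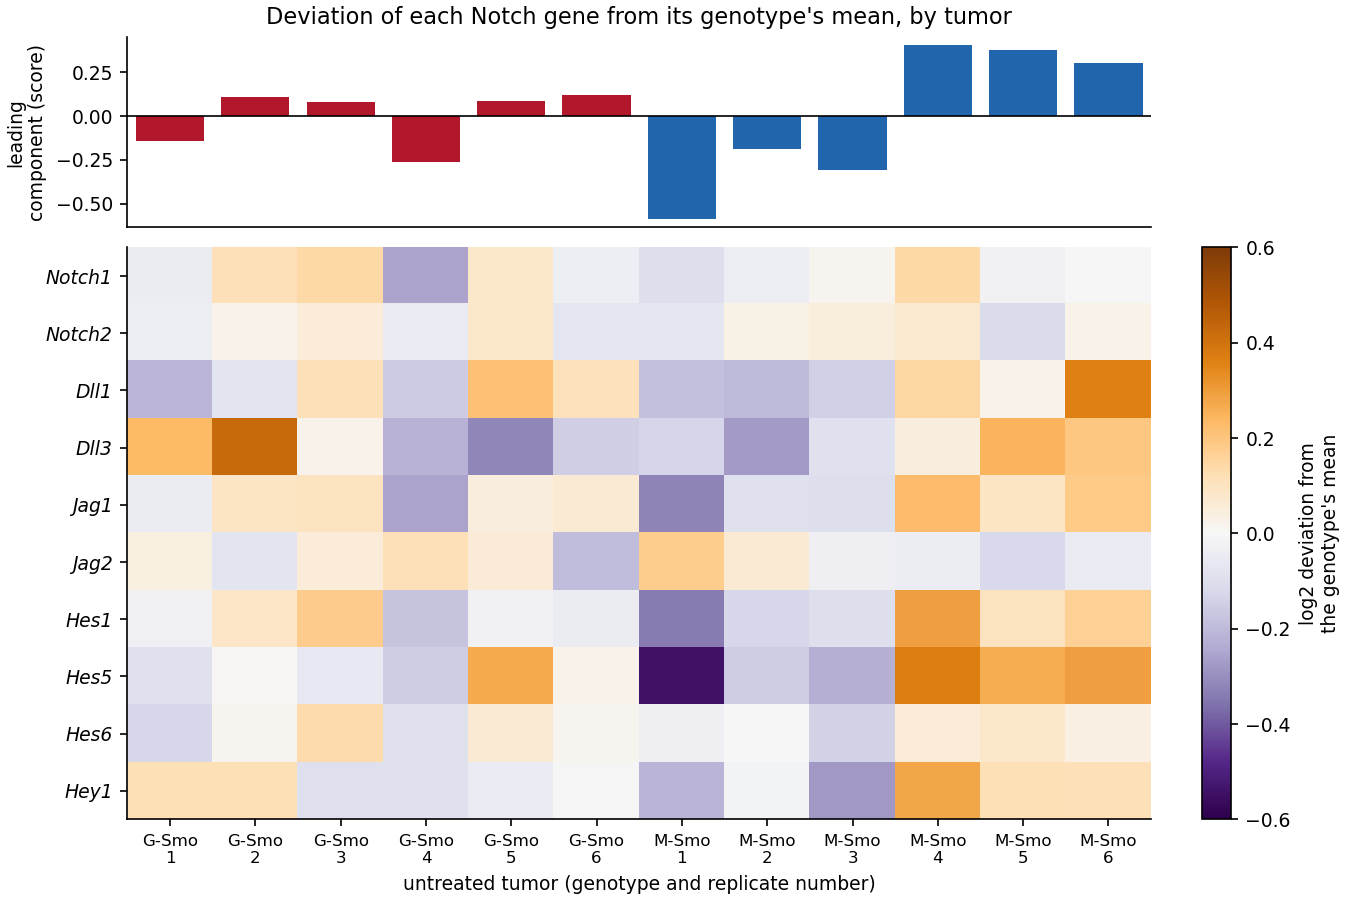
Deviation of each Notch gene from its genotype's mean (color, log2 units) in the 12 untreated tumors (columns), with the score of the leading within-genotype component above (bars, no unit). *M-Smo* replicates 1 to 3 have negative scores and low *Jag1*, *Hes1* and *Hes5*, *M-Smo* replicates 4 to 6 have positive scores and higher values, and *Notch2* varies least.

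The protein-coding genes most like *Jag1* by this measure, among 20157 probe sets, were *Rrn3*, *Sost* and *Cxxc1*, each with r = 0.97, and *Hes1* took place 7 in that order, *Hes5* place 147 and *Notch1* place 882. Those most like *Hes5*, among 20156, were *Taf6* (r = 0.97), *Hnrnpr* and *Ttc1* (both 0.96), with *Jag1* at place 182, *Hes1* at 444 and *Notch1* at 4243. None of these 6 genes differed between genotypes past the threshold (limma, adjusted p of 0.323 or more).

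A further 48 genes of the Notch pathway were described by a probe set of their own. None was higher in *G-Smo* tumors by limma, 1 was lower and 47 did not pass, where 2.56% of all probe sets passed. An unadjusted p under 0.05 was found for 12 of the 48, a cut that 18.9% of all probe sets passed. The differences were positive for 26 and negative for 22, with a median of 0.00692. The lower gene was *Dtx4*, of the Deltex family of E3 ubiquitin ligases that act on Notch receptors. Its level was 9.36 to 9.50 in *G-Smo* and 9.61 to 9.76 in *M-Smo* tumors, with no overlap. Genotypes did not overlap for 2 of the 48 genes, *Dtx4* and *Spen*, and for 3.46% of all probe sets. *Spen* did not pass (limma, adjusted p = 0.262). For *Dtx4*, the values were as follows. The log2 difference was −0.25 (SE 0.048, 95% interval −0.35 to −0.14, adjusted p = 0.0230), and the call was lost without *G-Smo* replicate 2, 5 or 6 (adjusted p up to 0.0557) and with the score of *Xist* and Y-linked transcripts as a covariate (0.0714).

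By role, the 2 other receptors, 4 other ligands, 8 genes of receptor cleavage, 8 of the nuclear complex, 5 of receptor glycosylation and 3 proneural factors had no call. The 5 other HES and HEY factors all had negative differences, from −0.39 to −0.12, and none passed. *Hes2*, *Hes7* and *Hes3* had means of 5.49, 6.39 and 6.65, where the median of all probe set means was 6.39. The lowest difference of the 5, chosen after its values were seen, was that of *Hey2*, a repressor known for its role in arterial cells. Its level was 7.61 to 7.97 in *G-Smo* and 7.90 to 8.62 in *M-Smo* tumors (difference −0.39, SE 0.112, limma adjusted p = 0.0865). The 4 genes of ligand endocytosis, whose products pull on ligands so that the receptor can be cleaved, all had positive differences, from 0.00609 to 0.23, with the smallest adjusted p at 0.0977.

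Markers of other cell types moved with genotype, and several of these types are known sources of Notch ligands or targets. Over all probe sets, 2.56% passed the test, and 1.29% were lower in *G-Smo* tumors. Of 6 measured markers of myelinating oligodendrocytes, 4 were lower in *G-Smo* tumors, with *Cldn11* at −1.16 (adjusted p = 0.0328) and *Mobp* at −1.67 (0.0388), and the list mean was 7.08 to 8.32 in *G-Smo* and 8.54 to 10.24 in *M-Smo* tumors. Of 7 fibroblast and meningeal markers, 5 were lower, with *Slc6a13* at −1.08 (adjusted p = 0.000377) and *Dcn* at −0.79 (0.00399), and list means of 7.34 to 7.71 and 7.97 to 8.32. Of 9 markers of astrocytes and Bergmann glia, cells in which *Jag1* and *Hes5* are known to be active, 2 were lower, *Aqp4* at −0.48 (adjusted p = 0.0271) and *Gfap* at −0.75 (0.0282), and the list means were 10.19 to 10.45 and 10.46 to 10.75, so that the groups did not overlap.

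Of 10 endothelial markers, 1 was lower, *Cdh5* at −0.33 (adjusted p = 0.0137), with list means of 7.92 to 8.03 and 7.92 to 8.23. Differences were negative for 8 of these markers and positive for 2, with *Slco1a4* at 0.36 (limma, adjusted p = 0.160). Of 8 markers of pericytes and smooth muscle 0 passed, with list means of 8.54 to 8.73 in *G-Smo* and 8.72 to 8.85 in *M-Smo* tumors. Of 6 stem-like markers 0 passed, with list means of 10.05 to 10.31 and 10.11 to 10.27. Their differences were positive for 3 and negative for 3. Genotypes did not overlap for 2 of the 6, against 3.46% of all probe sets. These were *Prom1*, higher in *G-Smo* at 0.25 (limma, adjusted p = 0.0502), and *Olig2*, lower at −0.29 (0.0591). Among 6 microglia and macrophage markers 1 was lower, *Mrc1* (−0.71, adjusted p = 0.00874). Differences there were negative for 4 and positive for 2, *Aif1* at 0.23 and *Csf1r* at 0.0080. Among 5 GABAergic lineage markers 1 was lower, *Pax2* (−0.87, 0.00668), with list means of 7.00 to 7.43 in *G-Smo* and 7.66 to 8.01 in *M-Smo* tumors. For each of differentiating granule neurons, oligodendrocyte precursors and ependyma with choroid plexus, 0 of 5 passed. In each of the last 2 lists 4 of 5 differences were negative. An unadjusted p under 0.05 (limma) was found for 3 in each, and for 18.9% of all probe sets. *Ttr* was at −3.89 (SE 1.21, adjusted p = 0.110), with levels of 6.14 to 11.89 in *G-Smo* and 6.74 to 12.86 in *M-Smo* tumors. The list means of astrocytes, fibroblasts, myelinating oligodendrocytes and the GABAergic lineage did not overlap between genotypes and were the lower ones in *G-Smo*. Among granule lineage progenitor markers, 4 had positive differences and 1 a negative one, and 0 of 5 passed (limma, smallest adjusted p = 0.0817). Their list means, 11.36 to 11.47 in *G-Smo* and 11.26 to 11.39 in *M-Smo* tumors, overlapped. *Jag1* was higher in *G-Smo* tumors. *Dtx4* was lower in *G-Smo* tumors, and *Jag2*, at −0.26, did not pass. The part of these cell types in the differences of *Jag1*, *Jag2* and *Dtx4* was not tested.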

How the data were processed

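Total RNA of flash-frozen tumors was measured on Affymetrix Mouse Gene 2.1 ST arrays. The authors deposited log2 intensities per probe set. The submitters' processing notes name Partek and RMA, which evens out arrays at the level of single probes, before probe sets are summarized. Of the probe sets, 23521 carried 1 symbol, and none of the 1820 with several named a member. The untreated arrays were compared with limma 3.58.1 (lmFit, eBayes; R 4.3.3), two-sided, with adjustment over 41345 probe sets. Correlations used 100000 resamples, and figures matplotlib 3.10.9. Steps were tested on simulated data. The members and lists were chosen with earlier results of these data known, and the leading component was added after values were seen. All 10 members were named, as were pathway genes past 0.05, up to 2 markers per list past 0.05 and the 3 genes most like *Jag1* or *Hes5*. Markers named without passing 0.05 were chosen after values were seen. The alternatives changed scaling (median centring, quantile), probe sets (mean level above the 40th percentile, 1 symbol), the fit (trend and robust, array weights, the methods' 1-way test), or covariates (replicate block, sex score), or left out 1 tumor. Protein sequences were not used here.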

Additional observations from a re-analysis of the deposited data

How the results depend on the processing

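Against 1057 probe sets past the threshold, the filter at the 40th percentile gave 1881, the sex score 420, the replicate block 113, and leaving out 1 tumor 367 to 942. Against 1 of the 10 Notch genes, quantile normalization, the filter and the probe sets with 1 symbol each gave 2 (*Jag1* and *Jag2*), the replicate block 0, and leaving out 1 tumor 0 to 1. With the sex score 1 gene passed, *Jag2* (−0.34, adjusted p = 0.0499) in place of *Jag1*. Against 1 other pathway gene, the replicate block and the sex score gave 0, and leaving out 1 tumor 0 to 1. With the replicate block the adjusted p was 0.110 for *Jag1* and 0.102 for *Dtx4*. No pairing by number was seen over all probe sets. Deviations of tumors with 1 number correlated from −0.14 to 0.11. Of the 12 tumors, 2 matched best with their own number among the 6 of the other genotype. These values cannot exclude a pairing, and the labels do not say what the numbers mean. The signs that turned were those of *Hes5*, at 0.069 with the sex score and −0.11 to 0.069 over left-out tumors, *Dll1*, at 0.21 in the fit as reported and −0.027 by its other probe set, and *Hey1* with *Notch2*, at r = −0.080 after quantile normalization. Of 233 values of single genes under the alternatives, 208 kept direction and side of the threshold, 8 turned, 13 lost and 4 gained a call. The causes were not tested. Signal over background is not known for these arrays.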
